A study of Mus musculus with 47 samples.

Results

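The ethanol-exposed medial prefrontal cortex (PFC) was compared between 2 moments of early withdrawal: CIE 8h, mice killed 8 hours after the last ethanol vapor session of chronic intermittent ethanol (CIE), and CIE 0h, mice killed as that session ended. The samples were chosen by their titles, and 11 of the 47 arrays of the series entered the comparison, 5 CIE 8h and 6 CIE 0h. All 45037 non-control probesets were tested. The question was how ethanol-exposed cortex itself changes over the first hours without ethanol.

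All animals were adult male mice of the inbred C57BL/6J strain, with no transgene. CIE mice breathed ethanol vapor at 10–13 mg per litre of air for 16 hours a day over 4 days, rested for 7 days, and went through 4 such cycles, with 1.6 g/kg ethanol and 1 mmol/kg pyrazole, an inhibitor of alcohol dehydrogenase, injected before each cycle. Ctrl mice breathed air in like chambers and received saline with the same pyrazole, so pyrazole, handling and repeated injection were common to every group. Each array held RNA of 1 mouse. The Ctrl 8h (6 mice) and Ctrl 0h (6 mice) groups gave the same interval without ethanol. The clock time of harvest is not given in the sources used here, so time since vapor and time of day cannot be told apart within CIE mice, and the Ctrl change over the same interval is given beside the main results.

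Ethanol depresses neuronal firing acutely, and when it is withdrawn after long exposure the brain becomes hyperexcitable. Firing is followed within minutes by immediate early genes, most of which encode transcription factors, and over hours by effector genes that act on the synapse. The molecular clock is a loop in which CLOCK and BMAL1 (Arntl) drive their own repressors and output genes such as Dbp through E-box sequences, and it runs in cortex as in other tissues.

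Before the results, 3 features of the arrays bear on them. Repeat group 2, a label of the submitters, held 8h mice alone (CIE mice 15 and 23, and 3 Ctrl mice) and no 0h mouse, so no value within repeat group 2 can be given, and counts are set beside those of the 3 CIE 8h mice of repeat group 1 (40, 51 and 69) against the CIE 0h mice. CIE 8h mouse 15 had the lowest mean correlation with the other arrays, 0.967, where the next lowest was 0.985 and the median 0.992. The 18 measured striatal markers, genes of the striatum that lies below this cortex, had a mean log2 level of 10.33, 10.04 and 9.63 in CIE 0h mice 11, 5 and 17, above all 5 CIE 8h mice (8.61 to 9.13) and all 6 Ctrl 0h mice (8.69 to 9.06). Their part in the results was not tested, and counts are given with a term for the striatal mean and without those 3 mice. As this was bulk tissue, fewer cells of a type and less RNA per cell cannot be told apart.

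A probeset was called changed at a false discovery rate (FDR) of 0.01 or less in limma with Benjamini-Hochberg adjustment over all probesets. By that rule 2679 probesets changed between CIE 0h and CIE 8h: 1495 rose (3.32% of those tested) and 1184 fell (2.63%). In repeat group 1 alone 1219 rose (2.71%) and 1409 fell (3.13%), and 1406 probesets of 1060 genes were called in the same direction both times, 52.5% of the calls on all arrays. Most changes were small. The called changes had a median size of 0.43 on the log2 scale, 1814 were under 0.5, and 32 were 1 (a doubling) or more. The number called depended on the fit: a fit of the 11 CIE arrays alone called 288 and a fit with array weights 5213. With the striatal term 1641 probesets were called, and without CIE 0h mice 5, 11 and 17 the number was 785, of which 769 had been called with them.

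Over the same 8 hours Ctrl mice had 310 probesets that rose (0.688%) and 333 that fell (0.739%), or 1027 (2.28%) and 1008 (2.24%) in repeat group 1 alone. That CIE mice had more calls than Ctrl mice did not hold under every setting: it was 288 against 347 with each comparison's arrays fitted alone, 5213 against 5256 with array weights and 2412 against 2223 with repeat group as a term. Of the CIE calls, 10 were also called in Ctrl in the same direction, which is 0.373% of CIE calls and 1.56% of Ctrl calls, and 35 in the opposite direction, 1.31% and 5.44%. The difference between the CIE and the Ctrl change was itself tested. It was called for 1536 probesets, with the CIE change above the Ctrl change in 911 (2.02%) and below it in 625 (1.39%). The numbers in repeat group 1 alone were 831 (1.85%) and 854 (1.9%), so the excess of higher calls was seen on all arrays and not there. On all arrays 883 of the 2679 CIE calls (33%) were called for the difference in the same direction.

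For gene lists, each gene was read from its brightest probeset. On that scale 586 of 18193 genes rose in CIE mice (3.22%) and 600 fell (3.3%). The shares were 2.33% and 4.01% in repeat group 1 alone, 0.572% and 0.561% in Ctrl mice (1.99% and 1.83% in repeat group 1), and 1.92% and 1.51% for the difference between the changes (1.61% and 1.96% in repeat group 1). The median log2 change over all genes in CIE mice was -0.008. At unadjusted p under 0.05 in limma were 5219 of the 18193 genes in CIE mice, 2547 upward and 2672 downward, and 3433 in Ctrl mice. List counts at that threshold are to be read beside these.

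The genes with the largest rises were in good part genes of neuronal activity: Homer1, Nptx2, Egr3, Bdnf, Ptgs2, Pcsk1, Dusp4 and Klf10 were among the 15. The largest fall was that of the clock gene Ciart, with Dbp, a clock output gene, the fifth. Each list was chosen from the called probesets of this contrast, so its sizes are a description. All 30 had been called in repeat group 1 alone by the rule that chose them. The Ctrl change ran from -0.51 to 0.23 for the 15 that rose and from -0.4 to 0.18 for the 15 that fell, and the smallest adjusted p of the 30 in Ctrl mice was 0.0261, for Klf10 (in repeat group 1 alone 1 of each 15 was called). The difference from the Ctrl change was called for 14 of the 15 rises, Nrp1 being the exception, and for 8 of the 15 falls, of which 11 and 4 were also called in repeat group 1 alone.

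**Figure D1:**
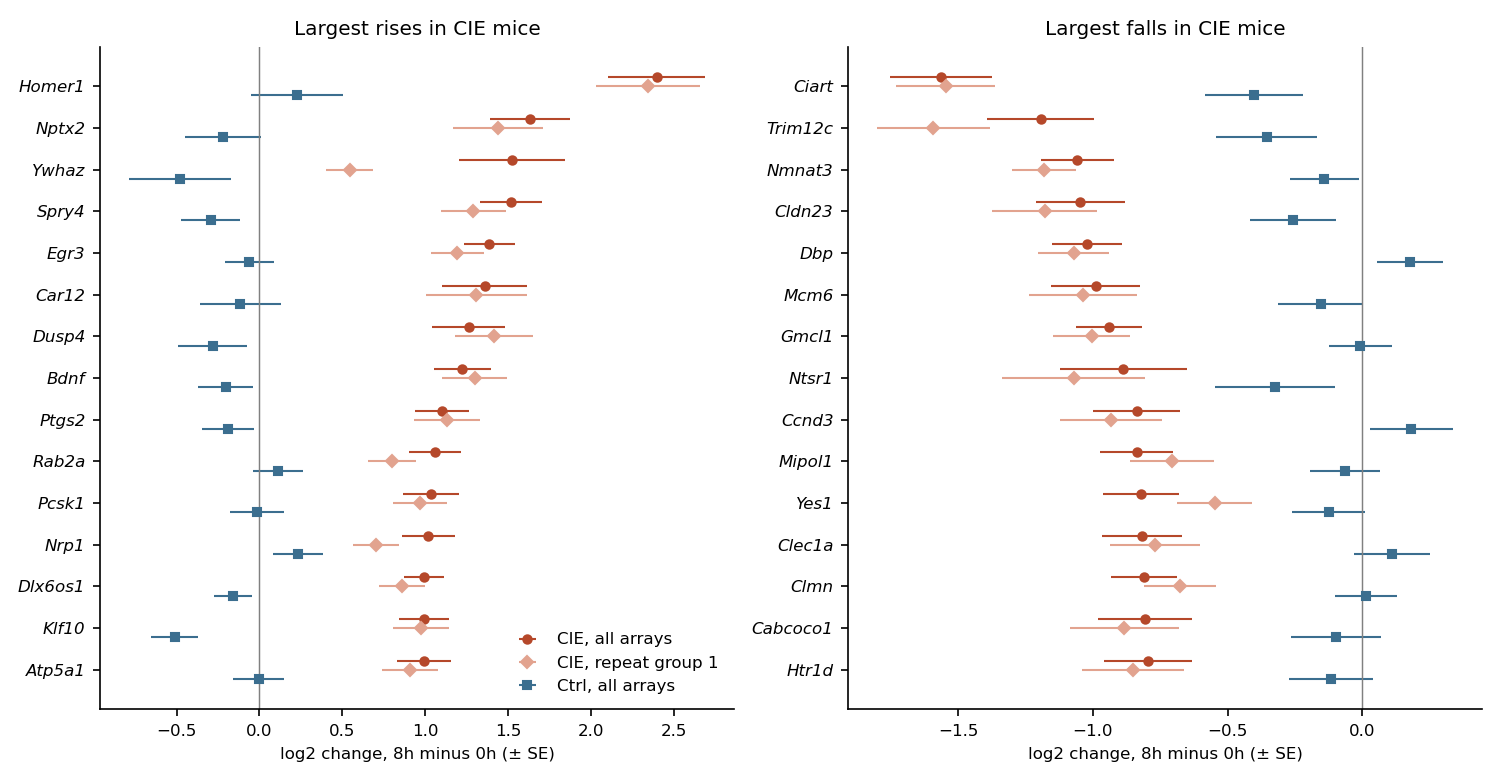
Log2 change from 0h to 8h (x axis, points with standard errors) of the 15 genes that rose most and the 15 that fell most in CIE mice, for CIE mice on all arrays, CIE mice of repeat group 1 and Ctrl mice. Homer1 stands apart at 2.40, and the Ctrl points lie between -0.51 and 0.23.

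Homer1, which encodes a scaffold of the postsynaptic density and makes a short, activity-induced form, had the largest change. Its log2 level in CIE 0h mice ran from 8.15 through a median of 9.27 to 9.54, and in CIE 8h mice 40, 51, 69, 15 and 23 it was 11.51, 10.75, 12.13, 12.33 and 10.87. Every 8h mouse lay above every 0h mouse, by more than 1 log2 unit. The rise was 2.40 ± 0.293 (SE; adjusted p = 7.29e-07), or 5.27-fold, and 2.35 in repeat group 1 alone. Ctrl mice averaged 10.55 at 0h and 10.78 at 8h, between the CIE levels, and the difference between the changes was 2.17 (adjusted p = 0.000557). It was 1.67 in repeat group 1 alone and not called (adjusted p = 0.0129). These values are those of 1 of 6 Homer1 probesets. Another pair rose by 0.41 and 0.47, and the other 3 (0.02, 0.18 and -0.12) were not called, so the size given is that of 1 probeset.

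Nptx2, a secreted pentraxin that gathers AMPA receptors at excitatory synapses, came next. Its level was 7.65, 7.85 and 8.93 at the lowest, median and highest CIE 0h mouse and 9.10, 9.53, 9.73, 10.26 and 9.63 in the 8h mice. The groups did not overlap, though the highest 0h mouse, mouse 17, came close to the lowest 8h mouse. Nptx2 rose by 1.64 ± 0.241 (adjusted p = 1.6e-05), and its other probeset rose by 1.22.

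Egr3, a zinc-finger transcription factor of the immediate early class, had levels of 10.67, 10.76 and 10.98 at 0h, and 11.98, 11.69, 12.30, 12.87 and 12.08 at 8h. The 0h mice lay close together and every 8h mouse was clear of them. The rise was 1.39 ± 0.156 (adjusted p = 1.17e-07), against -0.06 in Ctrl mice, which held 11.44 at 0h and 11.38 at 8h. The CIE mice thus started below the Ctrl levels and ended above them on this probeset. It is 1 of 2 Egr3 probesets, and the other was not called.

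Bdnf, the growth factor of the TrkB receptor, ran from 7.26 to 8.21 at 0h with a median of 8.00, and stood at 9.52, 8.71, 9.33, 8.87 and 9.13 at 8h. Again no mice of the 2 groups overlapped. Its rise was 1.23 ± 0.172 (adjusted p = 6.58e-06) on this probeset and 1.11 on the other. Ctrl means on the first probeset were 8.83 and 8.63, above the CIE mice at 0h and below them at 8h. The difference of CIE from Ctrl mice at 8h, 0.48, was not called (limma, adjusted p = 0.0582). On the other probeset CIE 8h mice ran from 9.06 to 10.29 and Ctrl 8h mice from 8.82 to 9.98, so these groups overlapped.

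Among the other large rises, Spry4, an inhibitor of growth factor signalling through ERK, went from a median of 5.64 to 7.17, 6.67, 7.18, 8.01 and 7.14, a rise of 1.52 (adjusted p = 7.18e-07). Pcsk1, a protease that cuts peptide hormone precursors, went from a median of 5.70 to 6.90, 6.53, 6.62, 7.53 and 6.16, a rise of 1.03 (adjusted p = 6.06e-05). For both genes all 8h mice exceeded all 0h mice. Spry4 had 4 probesets, of which only this 1 was called. Dusp4, a phosphatase that turns off MAP kinases, rose by 1.26, Ptgs2, the inducible cyclooxygenase, by 1.10, and Klf10, a zinc-finger repressor, by 0.99. Klf10 moved the other way in Ctrl mice, by -0.51 (adjusted p = 0.0261), and the difference was 1.5. Car12, a carbonic anhydrase at the cell surface, rose by 1.36, and a 0h mouse (7.27) reached into the 8h range (from 7.19).

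Some of the 15 rested on faint signal or on 1 of several probesets. Ywhaz, a 14-3-3 adaptor protein, was at 4.52 to 4.92 in CIE 0h mice and at 5.13, 5.23, 5.45, 8.92 and 6.51 in 8h mice. Mouse 15 held most of that distance. The rise of 1.53 was 0.55 in repeat group 1 alone, and without CIE 0h mice 5, 11 and 17 its adjusted p was 0.0124. Rab2a (1.06), a GTPase of transport between endoplasmic reticulum and Golgi, also had a mean level under 6, and 7 of the 15 genes had another probeset that was not called. Nrp1, a receptor of semaphorins and VEGF, rose by 1.02 on all arrays and 0.70 in repeat group 1.

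**Figure D2:**
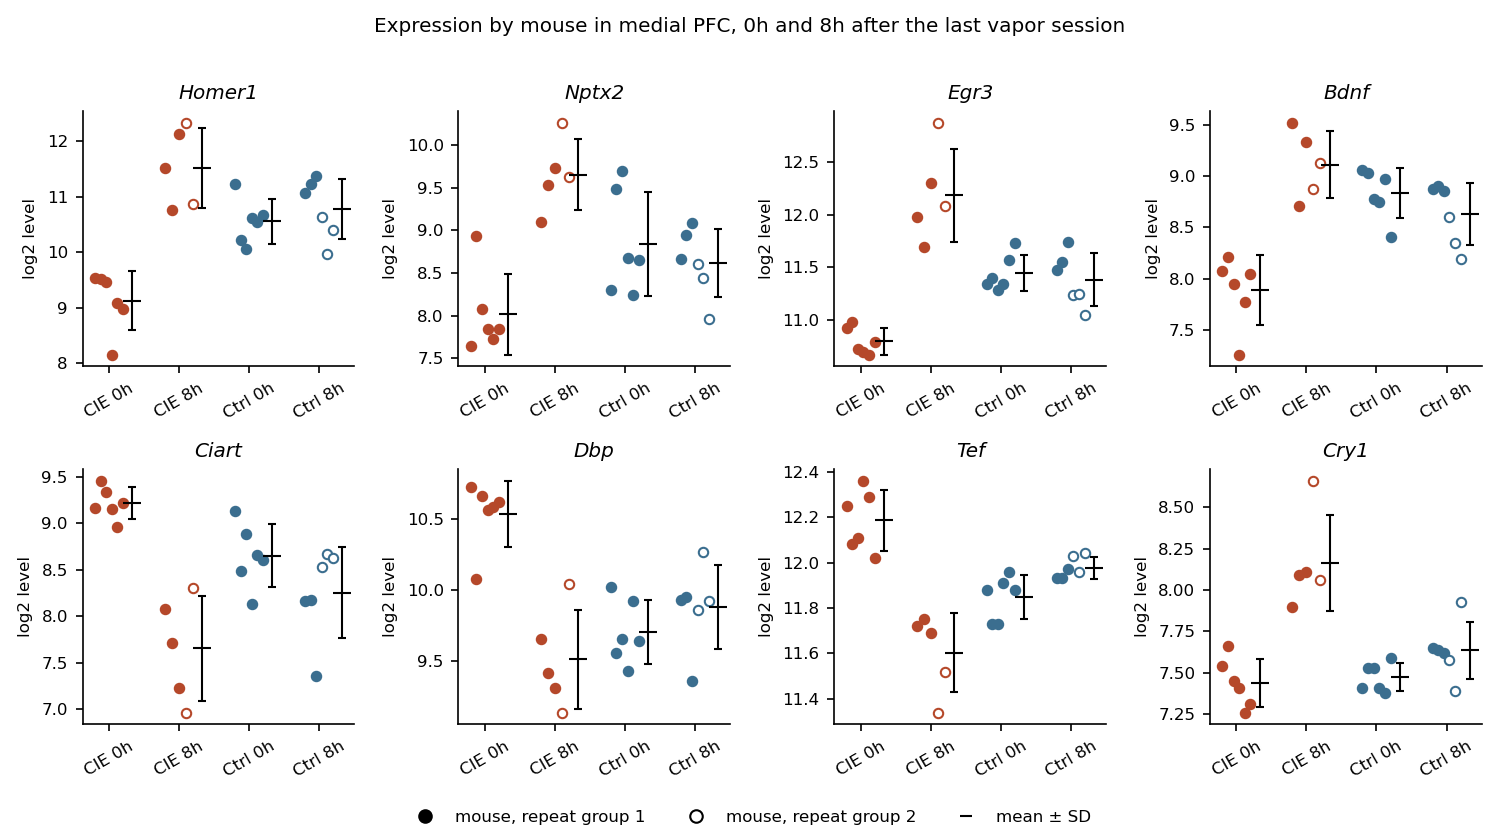
Log2 level (y axis) of 8 genes in each mouse of the CIE 0h, CIE 8h, Ctrl 0h and Ctrl 8h groups, filled for repeat group 1 and open for repeat group 2, with mean ± SD at the right of each group. In the upper row the CIE means go from below the Ctrl means at 0h to above them at 8h, and in the lower row Ciart, Dbp and Tef go from above to below while Cry1 ends above.

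Of the 34 immediate early genes on the list, 5 rose and none fell in CIE mice on all arrays, and 10 rose in repeat group 1 alone. The median change was 0.44 (0.615 in repeat group 1), and 28 of 34 lay above 0, beside 8736 of all 18193 genes. In limma without adjustment 20 of the 34 had p under 0.05, 18 of them upward, beside 5219 of all 18193 genes, 2547 of them upward. The 5 called were Egr3, Klf10, Dusp4, Egr1 (0.84, adjusted p = 0.000198) and Ier5 (0.44). Egr1 averaged 12.53 in CIE 0h mice and 13.37 in CIE 8h mice, against 13.43 and 13.40 in Ctrl mice.

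Several well known members had large estimates with a wide spread between mice and were not called on all arrays. Fos, the AP-1 subunit, was at 1.03 (adjusted p = 0.0706). Arc, which acts in the removal of AMPA receptors, was at 1.18 (adjusted p = 0.0359), and Npas4, a transcription factor specific to neurons, at 1.11 (adjusted p = 0.0185). Arc (1.59), Nr4a1 (1.11), Fosl2 (1.05), Dusp5 (1.29) and Trib1 (1.06) were called in repeat group 1. Jun stood the other way at -0.51 (adjusted p = 0.0252).

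The mean level of the 34 genes was 8.40 ± 0.19 (SD, n = 6) in CIE 0h mice and 8.87 ± 0.24 (n = 5) in CIE 8h mice, while Ctrl mice stood at 8.98 ± 0.32 at 0h and 8.83 ± 0.29 at 8h (n = 6 each). The highest CIE 0h mouse (8.57) lay below the lowest CIE 8h mouse (8.64) and below the lowest Ctrl 0h mouse (8.64), whereas CIE 8h mice lay within the Ctrl range. The Ctrl change had a median of -0.11 over the list. None of the 34 was called in Ctrl mice by limma, where 3 had unadjusted p under 0.05.

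Of 24 late effectors of activity 9 rose and none fell, with a median of 0.26, and 7 rose in repeat group 1. Beside Nptx2, Bdnf, Homer1, Ptgs2 and Pcsk1 these were Inhba (0.64), the activin subunit; Nrn1 (0.74), a membrane-anchored protein that promotes neurite growth; Vgf (0.59), a neuropeptide precursor; and Gpr3 (0.72), an orphan receptor that raises cAMP. Of the members not called, Nptx1 (-0.06), Sst (-0.08), which encodes somatostatin, and Rgs4 (0.00), a G protein regulator, lay near 0. The list mean was 9.95 ± 0.13 in CIE 0h mice and 10.30 ± 0.13 in CIE 8h mice, beside 10.19 ± 0.06 and 10.14 ± 0.11 in Ctrl mice, and the CIE groups overlapped by 1 mouse, CIE 0h mouse 17 at 10.17. The difference from the Ctrl change was called for 5 immediate early genes and 4 late effectors, and in repeat group 1 alone for 4 (Egr3, Klf10, Dusp4 and Trib1) and 1 (Pcsk1). With the striatal term 4 and 8 rose, and without the 3 CIE 0h mice 4 and 6.

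**Figure D3:**
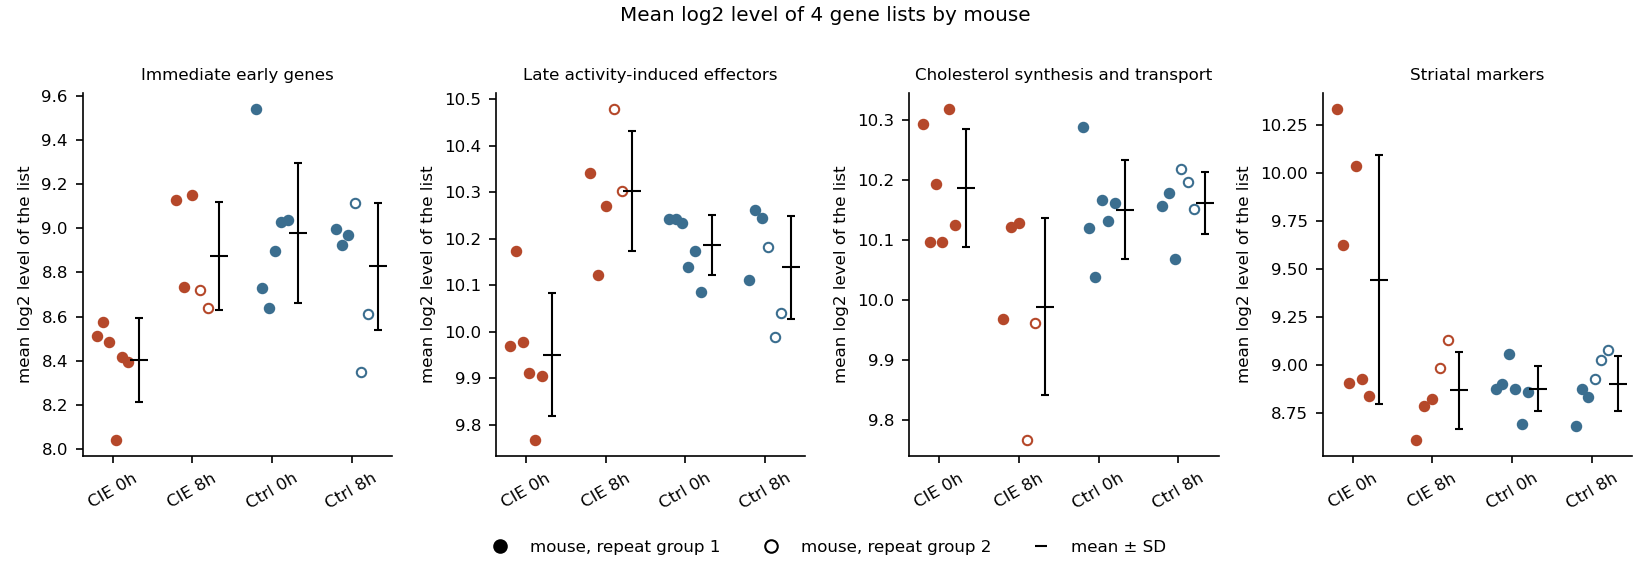
Mean log2 level (y axis) of 4 gene lists in each mouse of the 4 groups, filled for repeat group 1 and open for repeat group 2, with mean ± SD. The activity lists are lowest in CIE 0h mice, the cholesterol list is lowest in CIE 8h mice, and 3 CIE 0h mice stand above the rest for the striatal markers.

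The clock list held both directions. Of 24 measured genes 3 rose and 6 fell in CIE mice, and 1 rose and 5 fell in repeat group 1, and the same numbers without CIE 8h mouse 15. The promoters of 4 members of the clock and activity lists are printed first. E-boxes are given for Ciart, Tef and Cry1, and for Pcsk1 a cAMP response element, the site of CREB, a transcription factor activated by firing. Each of the 4 holds the motif it is shown for, which other members did not: the 1 promoter of Dbp held no E-box. None of the 7 Bdnf and 2 Homer1 promoters held a cAMP response element. Sequences are from RefSeq on GRCm38.p6, 300 bases from 250 before to 50 after the start, 5′ to 3′ on the gene's strand, with the motif in capitals. They lie at chr3:95882179-95882478 (Ciart, minus strand), chr15:81802423-81802722 (Tef, plus strand, 1 of 2 promoters of the gene), chr10:85185005-85185304 (Cry1, minus strand) and chr13:75089607-75089906 (Pcsk1, plus strand).
Ciart: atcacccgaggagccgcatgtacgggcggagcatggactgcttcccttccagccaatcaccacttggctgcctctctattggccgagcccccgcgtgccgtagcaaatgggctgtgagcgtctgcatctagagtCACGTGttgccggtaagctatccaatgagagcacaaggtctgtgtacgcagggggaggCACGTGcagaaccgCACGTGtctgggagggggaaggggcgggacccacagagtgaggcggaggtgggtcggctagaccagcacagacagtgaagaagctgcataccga
Tef: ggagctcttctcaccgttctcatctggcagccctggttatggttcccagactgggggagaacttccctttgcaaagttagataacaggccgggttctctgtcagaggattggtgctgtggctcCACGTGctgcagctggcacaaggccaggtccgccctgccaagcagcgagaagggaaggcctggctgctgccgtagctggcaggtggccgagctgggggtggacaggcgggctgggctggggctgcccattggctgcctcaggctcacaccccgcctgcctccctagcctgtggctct
Cry1: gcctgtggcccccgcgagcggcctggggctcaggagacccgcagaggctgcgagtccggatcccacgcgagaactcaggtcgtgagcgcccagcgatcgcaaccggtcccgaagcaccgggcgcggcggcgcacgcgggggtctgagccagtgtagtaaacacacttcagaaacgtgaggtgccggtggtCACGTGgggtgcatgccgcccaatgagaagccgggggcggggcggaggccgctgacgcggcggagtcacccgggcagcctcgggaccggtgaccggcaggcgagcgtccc
Pcsk1: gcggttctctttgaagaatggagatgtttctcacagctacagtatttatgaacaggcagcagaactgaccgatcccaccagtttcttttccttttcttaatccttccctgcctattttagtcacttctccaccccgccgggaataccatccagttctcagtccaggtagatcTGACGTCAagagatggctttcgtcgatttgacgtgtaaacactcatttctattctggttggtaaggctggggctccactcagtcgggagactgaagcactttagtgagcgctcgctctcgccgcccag

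Ciart held 3 E-boxes, starting 116, 58 and 44 bases before the start. The single E-boxes of the printed Tef promoter and of Cry1 began 127 and 60 bases before it, and the element of Pcsk1 78 bases before it. Both of the 2 Tef promoters held an E-box. A promoter was found for 62 of the 86 genes named by the rules for this comparison, 6 of which held an E-box (CACGTG): Ciart, Tef, Cry1, Ptgs2, Hsph1 and Sc5d. An E-box was present in 7.15% of all 32851 promoters, in 10.2% of the measured genes with a promoter, in 10.7% of the 401 genes that rose in both comparisons and in 13.5% of the 444 that fell. The cAMP response element (TGACGTCA) was in 1.79% of all promoters, and in 2.92%, 3.49% and 2.7% of those gene sets. Of the 62 named genes with a promoter 2 held it, Pcsk1 and Tra2a. All motifs were searched on both strands. The D-box (TTATGCAA or TTATGTAA), the heat shock element (GAANNTTC) and the interferon element (TTTC, NN, TTTC) were in 2%, 9.23% and 3.74% of the promoters of the genes that rose and in 2.03%, 7.88% and 3.15% of those that fell, against 1.61%, 7.6% and 3.63% of measured genes.

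Ciart encodes a repressor of CLOCK and BMAL1. Its level was 8.96, 9.20 and 9.46 at the lowest, median and highest CIE 0h mouse and 8.08, 7.71, 7.22, 6.96 and 8.30 in CIE 8h mice. All 8h mice were below all 0h mice. It fell by 1.56 ± 0.19 on the log2 scale (adjusted p = 7.18e-07), to a level 2.96-fold lower. Ctrl mice averaged 8.65 and 8.25, a change of -0.40 (adjusted p = 0.201) that in repeat group 1 alone was -0.76 (adjusted p = 0.0056). The CIE and Ctrl changes differed by -1.16 (adjusted p = 0.00359), and in repeat group 1 alone by -0.79, which was not called (adjusted p = 0.0448).

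Dbp, a transcription factor that binds D-boxes, went from 10.08, 10.60 and 10.72 at 0h to 9.66, 9.42, 9.31, 9.14 and 10.04 at 8h. The groups met at their edges, where the lowest 0h mouse, mouse 17, exceeded the highest 8h mouse, mouse 23, by a few hundredths. Dbp fell by 1.02 ± 0.129 (adjusted p = 1.22e-06), while the Ctrl change was 0.18 and the difference -1.20 (adjusted p = 3.66e-05). CIE mice were above the Ctrl mean of 9.71 at 0h and below the Ctrl mean of 9.88 at 8h on average.

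Tef, a relative of Dbp, had the smallest p of the list. It was at 12.02, 12.18 and 12.36 at 0h and at 11.72, 11.75, 11.69, 11.34 and 11.52 at 8h. Every 8h mouse was lower. Tef fell by 0.58 ± 0.061 (adjusted p = 3.1e-08), against 0.13 in Ctrl mice. Nr1d1 and Nr1d2, the REV-ERB repressors of Arntl, fell by 0.60 and 0.23, and Fbxl21, a ubiquitin ligase subunit that acts on cryptochromes, fell by 0.415, where the Ctrl change was -0.365.

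The 3 clock genes that rose were Cry1, Nfil3 and Arntl. Cry1, a core repressor of CLOCK and BMAL1, was at 7.26, 7.43 and 7.66 at 0h and at 7.90, 8.09, 8.11, 8.66 and 8.06 at 8h. All 8h mice were higher. Cry1 rose by 0.73 ± 0.127 (adjusted p = 0.000133), with a Ctrl change of 0.16, and the difference of 0.57 was not called (adjusted p = 0.0327). Nfil3, which competes with Dbp for D-boxes, rose by 0.67, and Arntl by 0.44. The period genes Per1 (-0.14), Per2 (0.23) and Per3 (-0.21) were not called. In Ctrl mice limma called no clock gene on all arrays, with 7 at unadjusted p under 0.05, and in repeat group 1 alone 2 fell. The difference between the changes was called for 5 of the 24, 1 above and 4 below Ctrl, and in repeat group 1 alone for 0 and 3, with Ciart and Nfil3 no longer called.

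**Figure D4:**
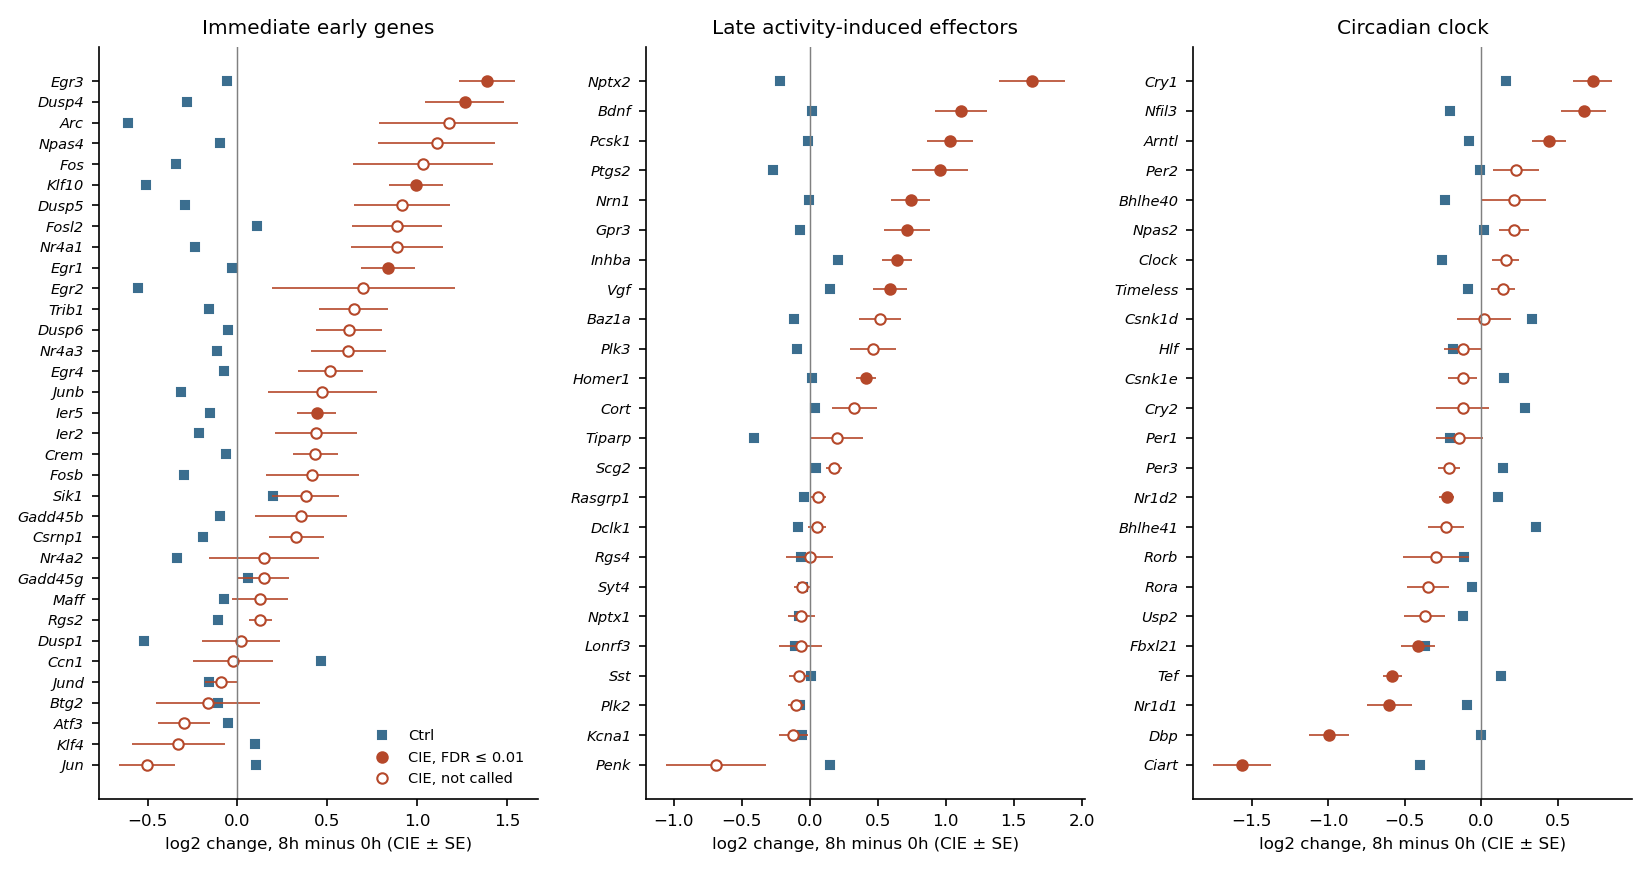
Log2 change from 0h to 8h (x axis) of every measured member of 3 gene lists, circles for CIE mice with standard errors (filled where called at FDR 0.01 or less) and squares for Ctrl mice. Of the 34 immediate early genes 28 lie above 0 in CIE mice, beside 8736 of all 18193 genes. The clock list runs from Ciart at -1.56 to Cry1 at 0.73.

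Of 26 neuropeptide and opioid genes 2 rose, both for peptides, and 4 fell, all for receptors. In repeat group 1 alone 1 rose and 4 fell, with Tacr1 called in place of Oprk1. Crh, corticotropin-releasing hormone, the peptide that starts the stress response, was at 6.38, 6.84 and 7.48 at 0h and at 8.40, 7.32, 7.55, 8.96 and 8.45 at 8h. Mouse 51 overlapped the 0h range. Crh rose by 1.23 ± 0.251 (adjusted p = 0.000786), and in repeat group 1 alone by an estimate of 0.85 that was not called (adjusted p = 0.0341). Ctrl mice ran from 6.97 to 7.99 at 0h and from 7.30 to 7.91 at 8h, and the difference between the changes of Crh was not called. Pnoc, the precursor of nociceptin, rose by 0.66, to 7.06 from 6.4, where Ctrl mice were at 7.27 and 7.23.

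Its receptor Oprl1 fell by 0.51, from 10.05 to 9.55, where Ctrl mice were at 9.52 and 9.71. Oprk1, the kappa opioid receptor, ran from 7.05 to 8.40 at 0h with a median of 7.81 and was at 6.52, 7.10, 7.11, 5.76 and 7.35 at 8h. The groups overlapped. Oprk1 fell by 1.01 (adjusted p = 0.00316), with -0.87 in repeat group 1 (adjusted p = 0.0159). Ntsr1, a neurotensin receptor, fell by 0.89 (adjusted p = 0.00869), and Adcyap1r1, the receptor of PACAP, by 0.34. The Ctrl change of Ntsr1 was -0.32. Of the 6 genes called, the difference from the Ctrl change was called for Pnoc (0.70) and Oprl1 (-0.70) alone. Without CIE 0h mice 5, 11 and 17 the adjusted p of these 6 genes ran from 0.017 to 0.0851, past the threshold, and without CIE 8h mouse 15 2 rose and 1 fell. Penk (-0.69, adjusted p = 0.22) and Pdyn (-0.54, adjusted p = 0.18), enkephalin and dynorphin precursors that the striatum also expresses, were not called.

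Of 40 potassium channel genes 5 rose and none fell, and 4 rose in repeat group 1. The difference from the Ctrl change was called for Kcnv1 alone (0.90), and in repeat group 1 alone for 1 other result, below Ctrl, and none above. Kcnd3 ran from 9.93 to 10.21 in Ctrl 0h mice and from 10.19 to 10.45 in Ctrl 8h mice. Kcnv1, a silent subunit that modifies other channels, was at 8.91, 9.61 and 10.04 at 0h and at 10.5, 10.21, 10.59, 10.87 and 10.14 at 8h. The 8h mice were all higher. Kcnv1 rose by 0.93 ± 0.139 (adjusted p = 1.9e-05), Kcnd3, a channel of the fast transient A-type current, by 0.52, Kcnf1 by 0.40 and Kcns2 by 0.28, the last pair being silent subunits too. Kcnt2, a sodium-activated channel, rose by 0.77, with 10.71 in mouse 15 and 0.28 in repeat group 1 alone. Without CIE 8h mouse 15, 3 of the 40 rose, and without the 3 CIE 0h mice 2. The list median of 0.03 was near that of all genes. Limma called none of 15 GABA-A and glycine receptor subunits, 20 glutamate receptor subunits and 26 synaptic vesicle genes, with 1, 3 and 9 at unadjusted p under 0.05.

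Heat shock and folding genes had 4 rises of 26 and splicing factors 6 of 28, with no falls in either, and 3 and 1 rose in repeat group 1. Without CIE 8h mouse 15 there were 2 and 3 rises, and without the 3 CIE 0h mice 1 and 3. The difference from the Ctrl change was called for 1 (Dnajb5) and 4 (Tra2b, Hnrnpa2b1, Srsf2 and Hnrnpc), and in repeat group 1 alone for 1 of each list. Dnajb5, an HSP40 co-chaperone, was at 8.68, 8.92 and 9.06 at 0h and at 9.76, 9.53, 9.99, 10.30 and 9.93 at 8h. The 2 groups stood well apart. It rose by 0.98 ± 0.122 (adjusted p = 8.98e-07), and the difference from Ctrl was 1.19. The others were small: Hspa8 0.32 and Hsph1 0.17, chaperones of the HSP70 and HSP110 families, and Chordc1 0.30, a partner of HSP90. The inducible Hspa1a (-0.16) and Hspa1b (0.32) were not called.

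Tra2b, a splicing activator, was at 11.54, 11.59 and 11.62 at 0h and at 11.81, 11.83, 11.84, 11.92 and 11.90 at 8h. These narrow ranges did not overlap. Tra2b rose by 0.27 ± 0.047 (adjusted p = 0.000127). Srsf2 (0.31), Tra2a (0.48), Hnrnpa2b1 (0.34), Hnrnpk (0.28) and Hnrnpc (0.26), which bind pre-mRNA, were not called in repeat group 1 alone (0.145 to 0.286), and their highest level was in CIE 8h mouse 15 in each case.

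Of 31 genes of NF-kB feedback, cytokines and chemokines 5 rose and none fell, with a median of 0.18. In repeat group 1, 3 rose and 1 fell, and without the 3 CIE 0h mice 3 rose. Socs1 and Socs3, which turn off cytokine receptor signalling, rose by 0.70 and 0.48, Icam1, an adhesion molecule of vessel walls, by 0.81, Il1a, the cytokine IL-1 alpha, by 0.57 and Cx3cl1, the neuronal chemokine that microglia sense, by 0.54. Socs1 was faint, at 4.12, 4.28 and 4.54 at 0h and 5.31, 4.97, 5.09, 4.86 and 4.68 at 8h. No mice overlapped, but both ranges lie near the bottom of the array's scale, as do those of Il1a and Icam1. Ccl12, a monocyte chemokine, was at 1.14 (adjusted p = 0.0116), and its difference from the Ctrl change of -0.60 was called, 1.74 (adjusted p = 0.00779), though not in repeat group 1 alone (1.34, adjusted p = 0.0969). Limma called none of 21 microglia markers, 34 interferon response genes and 18 antigen presentation genes, with 1, 4 and 3 at unadjusted p under 0.05.

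Of 25 genes of cholesterol synthesis and transport 7 fell and none rose, with a median of -0.19, and 4 fell in repeat group 1 (median -0.14). On all arrays 3 of the 25 lay above 0, and 9 did in repeat group 1, beside 8736 and 7731 of all 18193 genes. Sqle, squalene epoxidase, was at 10.91, 11.13 and 11.24 at 0h and at 10.54, 10.88, 10.77, 10.56 and 10.72 at 8h, so that the groups just missed each other. Sqle fell by 0.42 ± 0.088 (adjusted p = 0.00099), Lss by 0.41, Cyp51 by 0.24, Msmo1 by 0.31 and Sc5d by 0.50, enzymes that follow it in the path to cholesterol. Stard4, a sterol carrier, fell by 0.43, and Abcg1, an exporter, by 0.35. Srebf2, the transcription factor of the pathway, was at 0.03. The list mean was 10.19 ± 0.10 in CIE 0h mice and 9.99 ± 0.15 in CIE 8h mice, beside 10.15 ± 0.08 and 10.16 ± 0.05 in Ctrl mice. With the striatal term 5 fell, without CIE 8h mouse 15 4 fell, and without the 3 CIE 0h mice 1 (Sc5d). The difference from Ctrl was called for Stard4 alone, and for none in repeat group 1 (Stard4 -0.40, adjusted p = 0.0707).

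Of 27 lipid fuel and fasting genes 3 fell and none rose: Ppara, the receptor that switches on fat burning, by 0.60, Sesn1, a stress-induced brake on mTORC1, by 0.40 and Foxo3, a transcription factor restrained by insulin signalling, by 0.44. The same number fell in repeat group 1. The difference from the Ctrl change was called for none of the 27, on all arrays or in repeat group 1 alone. Without the 3 CIE 0h mice their adjusted p ran from 0.0371 to 0.0974. Of 32 genes that respond to glucocorticoids, 2 rose on all arrays, Mfsd2a (0.43), a lipid transporter of brain vessels, and Lcn2 (0.32), an iron-binding protein of inflammation, and none fell. Neither was called in repeat group 1 alone (0.42, adjusted p = 0.0124, and 0.27, adjusted p = 0.0439), and 1 fell, Klf15 (-0.64), a transcription factor induced by glucocorticoids. The classic members Fkbp5 (0.10), Sgk1 (-0.08) and Tsc22d3 (-0.05) were not called.

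**Figure D5:**
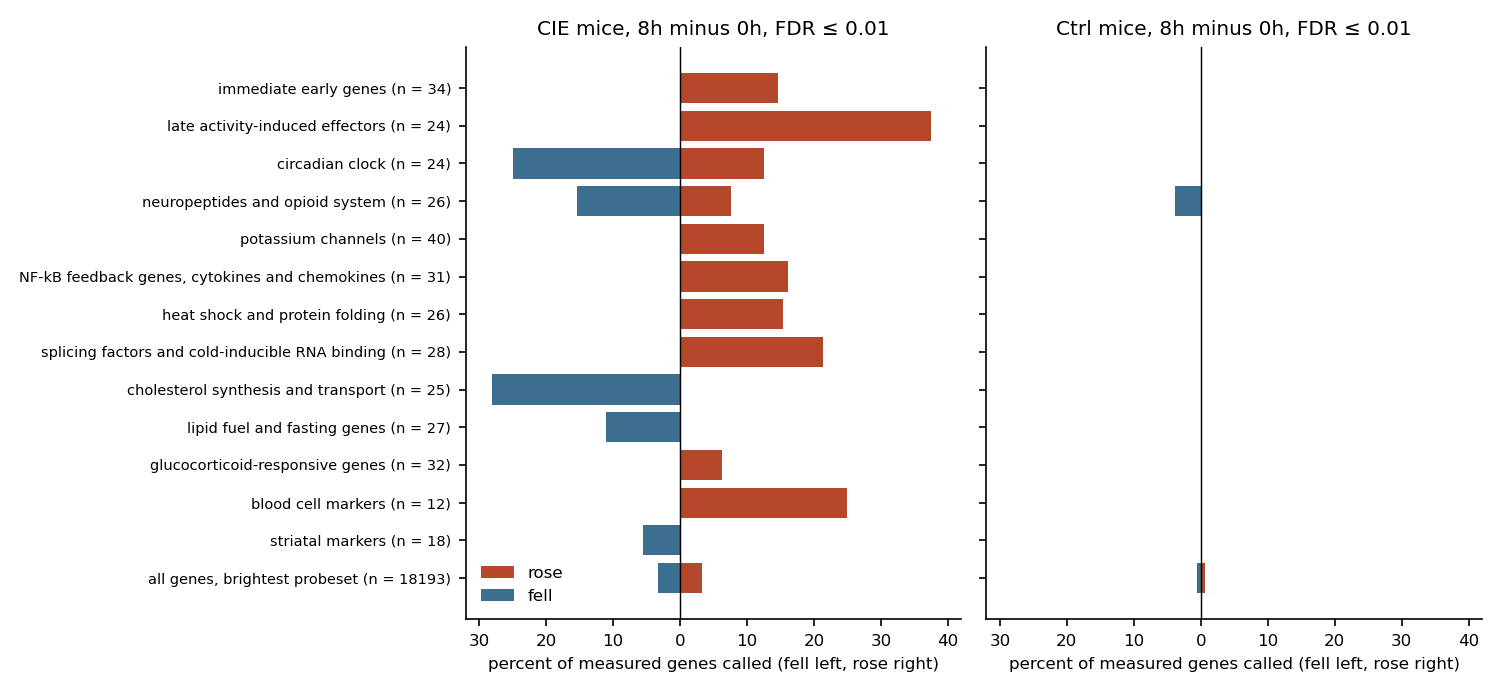
Percent of the measured genes of each list called at FDR 0.01 or less between 0h and 8h (x axis, falls to the left and rises to the right), for CIE mice and for Ctrl mice, with all genes at the bottom. In CIE mice 9 of 24 late effectors rose and 7 of 25 cholesterol genes fell, beside 3.22% and 3.3% of all genes.

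The falls outside the clock were mostly of faint probesets: 8 of the 15 largest had a mean level under 6, and 10 had another probeset of the gene that was not called. Mcm6, part of the replicative helicase, was among the brighter, at 7.21, 7.33 and 7.61 at 0h and 6.15, 6.47, 6.37, 6.54 and 6.37 at 8h. Its 2 groups were far apart. Mcm6 fell by 0.99 ± 0.165 (adjusted p = 8.05e-05), and Ctrl mice stood at 7.27 and 7.12, near the CIE 0h level. Its difference from the Ctrl change was not called, on all arrays (-0.835, adjusted p = 0.0154) or in repeat group 1 alone (-0.795, adjusted p = 0.0697). Of 3 Mcm6 probesets only this 1 was called as a fall. Nmnat3, an enzyme of mitochondrial NAD synthesis, fell by 1.06 and Ccnd3, cyclin D3, by 0.84. Ccnd3 averaged 6.83 and then 6.00 in CIE mice, above the Ctrl means of 5.43 and 5.62 at both times, and 1 of its 0h mice (6.25) lay in the 8h range. Htr1d, a serotonin receptor, fell by 0.80, and its difference from the Ctrl change was not called (-0.68, adjusted p = 0.0473). With the striatal term Ntsr1 and Cabcoco1 were no longer called, and without the 3 CIE 0h mice Ntsr1, Ccnd3, Cabcoco1 and Htr1d were not.

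For some genes named by the size of the difference between the changes, Ctrl mice changed as well. Spg7, a mitochondrial protease subunit, had the largest difference downward, -1.29 (adjusted p = 2.73e-05), with -0.41 in CIE mice (adjusted p = 0.0376) and 0.89 in Ctrl mice (adjusted p = 0.000162). Tiam2, an activator of the GTPase Rac, was at -0.27 in CIE and rose by 0.97 in Ctrl, and Tlr3, the sensor of double-stranded RNA, was at -0.46 and rose by 0.69 in Ctrl. AU015791, a transcript with no assigned function here, rose by 0.75 in CIE mice and fell by 0.75 in Ctrl mice. All but Tiam2 and Tlr3 of these were faint, with a mean level under 6.

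None of 22 astrocyte markers and 18 oligodendrocyte genes was called by limma, with 1 and 2 at unadjusted p under 0.05, and the excitatory neuron list had 1 rise and 1 fall of 22. Defining markers of cortex were high in both groups: Snap25, of the synaptic release machinery, averaged 14.29 at 0h and 14.24 at 8h, and Camk2a, of excitatory neurons, 13.83 and 13.90. Mbp, of myelin, averaged 14.26 and 14.29. All 18 striatal markers had estimates below 0 in CIE mice, where 8736 of all 18193 genes lay above 0. The median of the 18 was -0.45 (Ctrl 0.03), and 1 fell, Scn4b (-0.92), a sodium channel subunit. Scn4b was not called in repeat group 1 alone (-0.75, adjusted p = 0.0624). Gpr6, a receptor of striatal neurons, was at -2.23 (adjusted p = 0.0732), and Drd2, the D2 dopamine receptor, at -1.16 (adjusted p = 0.11). Of 12 blood cell markers 3 rose, the neutrophil granule genes Ltf (0.65), S100a9 (0.57) and Camp (0.55), as in repeat group 1. The haemoglobin gene Hba-a1 was at -0.20 (adjusted p = 0.0699). All 3 that rose were faint, between 3.95 and 6.49 in CIE mice. The difference from the Ctrl change was called on all arrays for 1 of the 12, Camp. In Ctrl mice Ltf ran from 5.04 to 5.43 at 0h and from 5.43 to 5.63 at 8h. The mean level of the 12 markers was 4.62 to 4.76 in CIE 0h mice and 4.82 to 4.98 in CIE 8h mice, without overlap, and its part in the rises of Icam1, Il1a, Socs1 and Lcn2 was not tested.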

How the data were processed

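RNA of medial PFC from individual mice was hybridized to Affymetrix Mouse Genome arrays. For every probeset the authors deposited a log2 value. RMA is named in the submitters' notes. By the methods of the study, arrays in general were corrected and normalized by RMA and quantiles and adjusted with ComBat by hybridization batch, and PFC was an exception, in which repeat group alone was the batch factor; which of the other steps were run on PFC arrays is not spelled out. Repeat group 2 held 8h mice alone, so a correction by repeat group can remove or add change between 0h and 8h. The median difference between repeat groups at 8h was 0.113 on the log2 scale. No tool versions were found for these steps.

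Groups were read from sample titles. Limma (3.58.1, in R 4.3.3) was fitted to the deposited values, with a mean for each of 8 groups over 47 arrays, or 42 arrays of repeat group 1, and p-values were Benjamini-Hochberg adjusted over 45037 probesets. Labels give 1 mouse per array, and precision is limited by how many arrays there were. The number of pairs of arrays with identical values was 0. Symbols came from GEO's platform annotation, updated through Entrez numbers: 34945 probesets had 1 gene, 932 several and 9160 none, and only those with 1 gene were named. A gene in a list was read from its brightest probeset. Of 1015 genes in 40 lists 932 were measured. Named were the 15 largest rises and falls called on all arrays and in repeat group 1, the 8 largest differences from the Ctrl change in each direction (1 probeset per gene, without _x_at and _s_at probesets), and up to 6 called members of each list described; other list members were named after their values were seen. The members and lists were chosen with earlier results of these data known. The fit was tested on simulated data. Other settings tried were repeat group as a term, fits of the compared arrays alone, array weights, repeated quantile normalization, a minimum mean level of 6, a trended robust prior, a striatal marker term and leaving out each mouse. Array control probesets for RNA quality were not analysed here.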

Additional observations from a re-analysis of the deposited data

Results flagged for a closer look

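The change from 0h to 8h differed between CIE and Ctrl mice, by the tested difference of the changes, for 1536 probesets. Of the 51 named probesets given here all had the same direction in repeat group 1 alone, where 29 were called. Repeat group 1 is part of the arrays on which they were called, so a shared direction was likely from the outset. Among the genes named, the activity genes had CIE changes above the Ctrl changes by 2.17 for Homer1, 1.86 for Nptx2, 1.45 for Egr3, 1.43 and 1.10 for the Bdnf probesets, 1.29 for Ptgs2, 1.05 for Pcsk1, 1.55 for Dusp4, 1.5 for Klf10, 0.87 for Egr1 and 0.59 for Ier5. The other rises among the largest differed by 2.01 for Ywhaz, 1.81 for Spry4, 1.48 for Car12, 1.16 for Dlx6os1, 1.00 for Atp5a1 and 0.95 for Rab2a.

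The clock genes differed by -1.16 for Ciart, -1.20 and -0.99 for the Dbp probesets, -0.71 for Tef, -0.34 for Nr1d2 and 0.87 for Nfil3. The other falls differed by -0.92 for Nmnat3, -0.93 for Gmcl1, -1.02 for Ccnd3, -0.77 for Mipol1, -0.93 for Clec1a and -0.83 for Clmn.

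Members of other lists differed by 0.70 for Pnoc, -0.70 for Oprl1, 0.90 for Kcnv1, 0.87 for Socs1, 0.62 for Il1a, 1.09 for Icam1, 1.19 for Dnajb5, 0.33 for Tra2b, 0.45 for Hnrnpa2b1, 0.34 for Srsf2, 0.39 for Hnrnpc, -0.60 for Stard4, 0.50 for Lcn2 and 0.77 for Camp. Genes named for the difference itself were at 1.74 for Ccl12, 1.5 for AU015791, -1.29 for Spg7, -1.27 for Gm10638, -1.25 for Pou3f4, -1.24 for Tiam2, -1.15 for Tlr3 and -1.12 for Foxj3.

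In 10 of 178 groups of CIE mice tested, 1 mouse lay far from the others by Dixon's test, where chance marks about 1 in 20. CIE 0h mouse 17 was high for Nptx2 (8.93) and Htr1d (5.92) and low for Dbp (10.08). CIE 8h mouse 15 was high for Rab2a (6.21), Dlx6os1 (7.05) and Cry1 (8.66). The others were CIE 8h mouse 51 for Ptgs2 (7.66), CIE 8h mouse 23 for Adcyap1r1 (10.31), CIE 0h mouse 11 for Pou3f4 (7.61) and CIE 0h mouse 72 for Lss (9.21). Mouse 15 also stood apart within CIE 8h mice by its mean correlation with the other arrays, 0.967.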

How the results depend on the processing

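Counts of calls depended on the setting. On all arrays the CIE comparison (2679 calls) gave 288 when its arrays were fitted alone, 5213 with array weights, 1476 among probesets of mean level 6 or more, 1641 with the striatal term and 1566 without CIE 8h mouse 15 and CIE 0h mouse 17. It gave 785 without CIE 0h mice 5, 11 and 17, a setting chosen after seeing the data, as was the pair before it. In repeat group 1 alone (2628) these settings, the pair aside, gave 1648, 6139, 1203, 1182 and 727. The Ctrl comparison (643) gave 347, 5256 and 24 under the first 3, 2035 in repeat group 1 alone and 2223 with repeat group as a term. The difference between the changes (1536) gave 5059 with weights, 582 at mean level 6 or more and 823 without the 3 CIE 0h mice. Leaving out each mouse in turn gave 1875 to 2629, 850 to 2697 in repeat group 1 alone, 184 to 763 for Ctrl and 1119 to 1610 for the difference. The count in repeat group 1 fell to 878, 1199 and 850 without CIE 8h mice 40, 51 and 69. That for Ctrl fell to 184, 187 and 194 without Ctrl 8h mice 66, 75 and 79, and to 356, 316 and 387 without Ctrl 0h mice 2, 20 and 48. Repeated quantile normalization and the trended prior kept every count within 1.5 times. The causes were not tested.

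Over the 81 values of 78 named genes called in CIE mice no direction reversed under any setting run. Calls were lost for 17 in repeat group 1, 11 with the repeat group term, 60 with the arrays fitted alone, 6 with weights, 16 with the striatal term and 35 without the 3 CIE 0h mice. Of 680 list medians 678 moved by less than the spread between mice. A change of sign did not itself count as a move. The fit without CIE 0h mice 5, 11 and 17 was not among these 680. In that fit the median went from -0.451 to -0.028 for striatal markers and from -0.067 to 0.064 for glucocorticoid-responsive genes. It went from -0.13 to 0.019 for antigen presentation genes and from 0.438 to 0.387 for immediate early genes. No paired analysis was possible because mouse numbers are not shared between groups.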

Other observations

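Further gene lists are read against the 3.22% of all genes that rose and the 3.3% that fell in CIE mice. Of 23 hypoxia and glycolysis genes 3 rose (P4ha1, Ldha and Pfkfb3, the last not called in repeat group 1). Of 24 genes of the perineuronal net and extracellular matrix 2 rose (Has2 and Tnr, the latter not called in repeat group 1) and 1 fell (Cd44). Of 27 genes of endoplasmic reticulum stress 1 rose (Syvn1) and 2 fell (Herpud1 and Eif2ak3), none of which was called without CIE 8h mouse 15 or in repeat group 1 alone, where 1 other rose (Dnajb11). Limma called none of 38 respiratory chain genes, 26 ribosomal protein genes and 22 calcium channel and pump genes, of which 2, 7 and 6 had unadjusted p under 0.05. With repeat group 1 alone 1 respiratory chain gene rose (Ndufs4) and 1 fell (Cox7c), and 1 calcium channel gene rose (Cacna1a). Over all 40 lists, 56 of 932 measured genes rose and 28 fell in CIE mice (45 and 25 in repeat group 1). In Ctrl mice 0 rose and 3 fell. At unadjusted p under 0.05 in limma were 114 of the 932 in Ctrl mice, beside 3433 of all 18193 genes.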
